A study of Mus musculus with 6 samples.

Results

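Of the 45706 genes in the deposited count table, 10 were examined as transcription factors that act in hematopoietic stem cells, namely Hlf, Mecom, Mllt3, Erg, Fli1, Runx1, Etv6, Prdm16, Gata2 and Hhex. They were listed by name, with earlier results of these data known, and the question was whether their expression stayed stable once the H3K4 methyltransferase Setd1b was removed. All 10 passed the filter on low counts, with between 272 and 10101 counts per gene and library. RNA was taken from the LSK compartment of bone marrow (Lin- Sca-1+ c-Kit+), a sort gate that holds hematopoietic stem cells together with multipotent and lymphoid-primed progenitors. Ctrl mice were heterozygous (Setd1b HET, FD/+; RC/+) and cKO mice homozygous (Setd1b HOM, FD/FD; RC/+) for the conditional allele, in which Cre removes exon 5 and shifts the reading frame, with 3 male C57BL/6 mice in each group and 1 library per mouse. Mice were 16 weeks old, except cKO mouse 3, which was 17 weeks old. Both groups carried 1 copy of Rosa26-Cre-ERT2 and received tamoxifen by gavage at 4.5 mg a day for 4 days and, after a pause of 3 days, for 2 more days, and the cells were collected 3 days later. This schedule is that of the sample labels, and the study's methods state a different number of doses. Ctrl mice therefore also lost 1 functional allele, and because Rosa26-Cre-ERT2 acts in nearly all tissues, the cells surrounding the stem cells in the marrow had recombined as well.

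Hematopoietic stem cells are held in their state by transcription factors that bind one another's regulatory elements and form a densely connected network. Erg and Fli1 are ETS family activators, Runx1 binds DNA with its partner Cbfb, and Gata2 joins them with Tal1, Lyl1 and Lmo2 in a group of co-bound regulators often called the heptad. Mecom and Prdm16 are zinc finger proteins with a related PR domain, Hlf is a PAR bZIP factor that marks the most immature cells, Mllt3 (AF9) reads acylated histones and recruits elongation factors, Etv6 is an ETS repressor needed for adult stem cells in the marrow, and Hhex is a homeodomain factor needed for lymphoid output and for stem cell self-renewal under stress. Setd1b belongs to a complex that contains Cfp1, a protein that binds unmethylated CpG dinucleotides, so that the CpG content of the start sites is shown first.

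Promoter windows from 250 bases before to 50 bases after the start were taken from RefSeq (GRCm38.p6, the build of the count table) and were found for 9 of the 10 genes, with 15 starts in all. Those of Mecom and Prdm16 are printed because both genes passed the test as higher in cKO, and both starts of Runx1, a gene that did not pass the test, are printed for comparison. Sequences run 5′ to 3′ on the strand of the gene, and capitals mark each CpG.
Mecom, upstream start, chr3:30509710-30510009, minus strand: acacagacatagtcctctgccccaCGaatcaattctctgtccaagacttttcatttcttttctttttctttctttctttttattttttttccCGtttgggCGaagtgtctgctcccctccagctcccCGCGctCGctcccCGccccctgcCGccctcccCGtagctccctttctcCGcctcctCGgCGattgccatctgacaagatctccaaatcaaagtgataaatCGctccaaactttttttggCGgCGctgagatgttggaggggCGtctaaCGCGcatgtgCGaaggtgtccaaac
Mecom, downstream start, chr3:30013155-30013454, minus strand: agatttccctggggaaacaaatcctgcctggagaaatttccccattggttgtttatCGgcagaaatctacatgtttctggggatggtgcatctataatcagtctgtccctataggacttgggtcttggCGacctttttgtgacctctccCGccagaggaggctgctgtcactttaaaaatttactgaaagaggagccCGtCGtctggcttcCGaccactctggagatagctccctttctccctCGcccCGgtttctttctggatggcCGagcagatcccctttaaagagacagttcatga
Prdm16, chr4:154636824-154637123, minus strand: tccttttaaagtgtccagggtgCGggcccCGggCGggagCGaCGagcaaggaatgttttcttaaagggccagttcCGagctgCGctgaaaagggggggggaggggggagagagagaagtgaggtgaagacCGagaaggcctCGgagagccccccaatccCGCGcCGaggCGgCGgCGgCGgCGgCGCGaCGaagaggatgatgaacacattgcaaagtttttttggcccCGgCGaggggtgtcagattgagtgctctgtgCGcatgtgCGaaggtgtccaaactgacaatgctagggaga
Runx1, upstream start, chr16:92826025-92826324, minus strand: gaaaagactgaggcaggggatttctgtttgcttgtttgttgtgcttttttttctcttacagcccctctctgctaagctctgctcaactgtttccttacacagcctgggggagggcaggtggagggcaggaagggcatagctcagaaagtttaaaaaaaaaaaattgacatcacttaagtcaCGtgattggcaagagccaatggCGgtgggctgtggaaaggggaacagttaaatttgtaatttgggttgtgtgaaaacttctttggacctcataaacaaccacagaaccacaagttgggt
Runx1, downstream start, chr16:92697280-92697579, minus strand: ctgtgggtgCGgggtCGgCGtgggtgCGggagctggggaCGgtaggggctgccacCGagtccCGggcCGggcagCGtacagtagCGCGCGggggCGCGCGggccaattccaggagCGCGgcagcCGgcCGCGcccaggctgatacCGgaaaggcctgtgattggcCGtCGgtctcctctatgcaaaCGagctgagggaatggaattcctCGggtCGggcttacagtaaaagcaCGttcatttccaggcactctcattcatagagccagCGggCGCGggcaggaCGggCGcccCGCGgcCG

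The 300-base windows of these 9 genes held between 2 and 37 CpG, against a median of 7 over all 32851 windows of the table and quartiles of 3 and 20. The upstream window of Mecom held 19 CpG and the downstream one 9, and the window of Prdm16 held 24. Runx1 spans the range within 1 gene, with 2 CpG at its upstream start, fewer than in most windows, and 35 at its downstream start. Hhex had the most, with 37, and Gata2 held 32 and 29 at its starts. Letters that transcription factors of this group bind were searched on both strands. The RUNX motif TGTGGT occurred in 1 of the 15 windows, the upstream start of Runx1, which held it 2 times, and in 16.8% of all windows. GATAA, bound by GATA factors, was found once in each Mecom window and once in an Erg window, and 25.4% of all windows held it. The ETS motif CCGGAA, which contains a CpG, was present in the windows of Hlf and of the downstream Runx1 start, against 14.9% of all windows. A match describes the letters only and is not evidence of binding. The upstream window of Mecom and the window of Prdm16 also shared an unbroken run of 24 bases, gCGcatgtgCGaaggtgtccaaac, which begins 27 bases into the Mecom transcript, where it reaches the end of the window, and 10 bases into that of Prdm16. No other window of the table held this run. Over the 98 pairs of windows from different genes, the next longest shared run had 14 bases. This comparison was made after the sequences had been seen.

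Counts per library summed to between 13003573 and 21277519. Counting error alone gives an SD of 6.06% for the lowest count of the 10 genes and 0.995% for the highest. The numbers that name the libraries fall into 2 series, which neither the labels nor the methods describe. The first holds cKO mice 1 and 2 with Ctrl mouse 1, and the second holds cKO mouse 3 with Ctrl mice 2 and 3. The transcripts Gm42418 and Gm26917 took 4.45% to 5.30% of each library in the first series and 7.52% to 9.04% in the second. Differences within each series are therefore given beside those over all 6 mice. The targeted gene, Setd1b, reached 221, 194 and 223 CPM (counts scaled to library size by edgeR's TMM factors) in Ctrl mice 1 to 3 and 272, 288 and 314 CPM in cKO mice 1 to 3. Its total count was thus higher in every library labelled cKO (log2 fold change 0.46, standard error 0.073, adjusted p = 0.0015), although by label these mice were homozygous for the conditional allele. The frameshifting exon of 113 bases makes up 0.936% of the 12068 exon bases of the gene, so that a count per gene does not check the deletion, and directions are stated for the libraries as labelled. Of the gate genes Ly6a (Sca-1) and Kit and the LSK-expressed genes Cd34 and Ptprc, which were counted in all 6 libraries at 1144 to 1287 CPM in sum, none passed the threshold, with Ptprc nearest to it (log2 fold change 0.14, adjusted p = 0.29).

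Of the 10 factors, 3 were higher in the libraries labelled cKO, none was lower and 7 did not pass an adjusted p of 0.05 (quasi-likelihood test of edgeR, Benjamini-Hochberg adjusted over all 15184 genes tested). Over all genes tested, 7.67% passed, 3.88% as higher and 3.79% as lower. An unadjusted p under 0.05 was reached by 4 of the 10, and by 3470 of the 15184 genes tested. The groups did not overlap for 4 of the 10 factors, where 27.3% of all genes tested did not overlap. The median log2 fold change of the 10 was 0.05, beside 0.00023 for all genes tested. The largest fitted change was that of Prdm16, at 0.46 on the log2 scale. None of the 10 passed a test against a change of 1.2-fold, which only 341 of the 15184 genes tested passed. The intervals nevertheless reach 1.61-fold for Prdm16 and 1.54-fold for Mecom. With the library series as a covariate, Mecom, Fli1 and Prdm16 passed and the other 7 did not, where 7.17% of all genes tested passed. In bulk RNA, a change in the share of cells that express a gene and a change in RNA per cell cannot be told apart. The paper states, without showing the data, that the mix of cells in the LSK compartment differed little from controls at this time. By qRT-PCR it also reports lower Klf1, Mpo and Ighm in sorted long-term stem cells, multipotent progenitors and lymphoid-primed progenitors, respectively. That comparison used a few mouse pairs, called representative, with a spread taken from technical replicates. Klf1, Mpo and Ighm are not among the 10 factors.

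**Figure D1:**
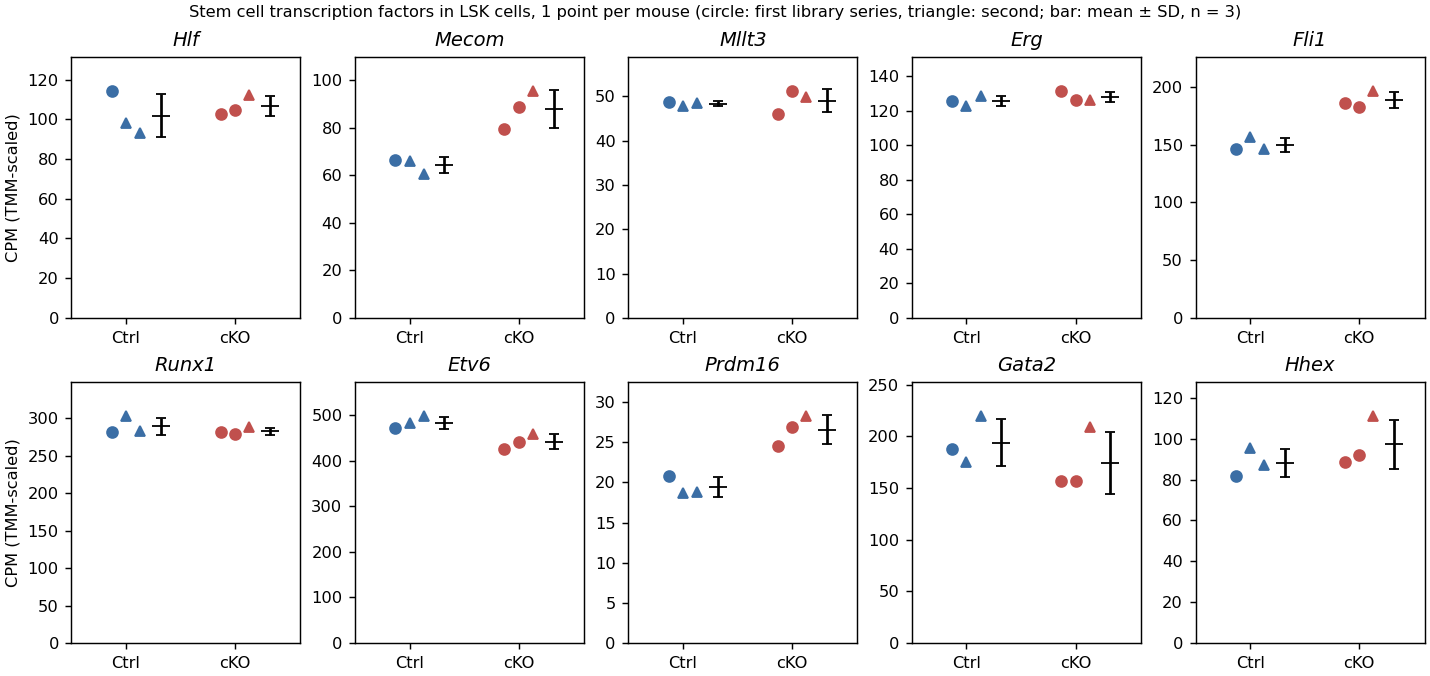
Expression of the 10 factors in CPM (TMM-scaled, axes from 0), with 1 point per mouse, blue for Ctrl and red for cKO, circles for the first and triangles for the second library series, and black bars for the mean ± SD (n = 3). The cKO points lie above all Ctrl points for Mecom, Fli1 and Prdm16 and below them for Etv6, and the groups overlap for the other 6.

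Mecom and Prdm16, the pair of PR domain factors, both rose, by 0.45 and 0.46 on the log2 scale. Mecom (ENSMUSG00000027684, chromosome 3 from 29951296 to 30548008), a regulator required for the maintenance of long-term stem cells, had 66.3, 66.1 and 60.3 CPM in Ctrl mice 1 to 3 and 79.3, 88.6 and 95.3 CPM in cKO mice 1 to 3. Every library labelled cKO lay above every Ctrl library. The means were 64.2 ± 3.37 and 87.8 ± 8.03 CPM (SD, n = 3 each), and the fit gave a log2 fold change of 0.45 (standard error 0.082, 95% interval 0.28 to 0.62, adjusted p = 0.0032). It was 0.34 within the first series and 0.59 within the second. Mecom missed the threshold under none of the alternatives except the test against 1.2-fold (adjusted p = 0.13).

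Prdm16 (ENSMUSG00000039410, chromosome 4 from 154316125 to 154636873), which supports stem cell maintenance and has the lowest count of the 10, had 20.8, 18.6 and 18.8 CPM in Ctrl mice 1 to 3 and 24.6, 26.9 and 28.3 CPM in cKO mice 1 to 3. The groups did not overlap. Its means were 19.4 ± 1.21 and 26.6 ± 1.86 CPM (SD, n = 3 each), and the fitted log2 difference was 0.46 (standard error 0.11, 95% interval 0.22 to 0.69, adjusted p = 0.020). The series gave 0.30 and 0.59. This call was lost without Ctrl mouse 2 (adjusted p = 0.067), Ctrl mouse 3 (0.077), cKO mouse 2 (0.082) or cKO mouse 3 (0.078), while the log2 fold change stayed between 0.41 and 0.51 with any 1 mouse left out. Both genes have a longer form with the PR domain and a shorter form without it, and counts per gene do not separate these forms.

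Fli1 (ENSMUSG00000016087, chromosome 9 from 32422204 to 32542861) was the third factor that rose. It had 147, 157 and 146 CPM in Ctrl mice 1 to 3 and 186, 183 and 196 CPM in cKO mice 1 to 3, without overlap. The means of 149.9 ± 6.24 and 189 ± 7.07 CPM (SD, n = 3 each) gave a log2 fold change of 0.33 (standard error 0.064, 95% interval 0.19 to 0.47, adjusted p = 0.0048). Fli1 had the most even difference of the 3, with 0.33 in the first series and 0.38 in the second, and it passed with any 1 mouse left out. The test against 1.2-fold gave an adjusted p of 0.56.

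Erg (ENSMUSG00000040732, chromosome 16 from 95359169 to 95586593), the ETS factor closest to Fli1 in sequence and also needed for stem cell maintenance, did not pass the threshold. Ctrl mice 1 to 3 had 126, 123 and 128 CPM and cKO mice 1 to 3 had 131, 126 and 126 CPM. The ranges of the groups overlapped, and the log2 fold change was 0.03 (95% interval -0.11 to 0.16, adjusted p = 0.84). The difference between the changes of Erg and Fli1 was not tested. Etv6 (ENSMUSG00000030199, chromosome 6 from 134035700 to 134270158), the ETS repressor, had the highest counts of the 10, at 471, 482 and 497 CPM in Ctrl mice 1 to 3 and 425, 441 and 457 CPM in cKO mice 1 to 3. Here every library labelled cKO lay below every Ctrl library. The log2 fold change was -0.13 (95% interval -0.26 to -0.0051), with an unadjusted p of 0.043 and an adjusted p of 0.20. It was -0.12 in the first series and -0.10 in the second, and Etv6 passed under none of the alternatives. Etv6 came nearest with the length trend removed (-0.20, adjusted p = 0.058).

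Runx1 (ENSMUSG00000022952, chromosome 16 from 92601466 to 92826149), which is required for stem cells to emerge in the embryo and for platelet and lymphoid output in the adult, had 282, 303 and 283 CPM in Ctrl mice 1 to 3 and 282, 279 and 288 CPM in cKO mice 1 to 3. The log2 fold change was -0.03 (95% interval -0.16 to 0.096, adjusted p = 0.81), and a change of more than 1.12-fold in either direction lay outside the interval. Gata2 (ENSMUSG00000015053, chromosome 6 from 88193891 to 88207030), a zinc finger factor for stem cell survival and for mast cell and megakaryocyte fates, varied most between mice. It had 187, 175 and 219.6 CPM in Ctrl mice 1 to 3 and 157, 157 and 209 CPM in cKO mice 1 to 3. Its highest value in each group came from the second series, and its coefficient of variation was 11.9% in Ctrl and 17.2% in cKO. The log2 fold change was -0.15 (95% interval -0.38 to 0.071, adjusted p = 0.42), negative in the first series (-0.25) and positive in the second (0.092). It was -0.31 without cKO mouse 3 (adjusted p = 0.066) and -0.059 without Ctrl mouse 3 (adjusted p = 0.84).

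Hlf (ENSMUSG00000003949, chromosome 11 from 90336536 to 90390895) had 114, 98.0 and 93.2 CPM in Ctrl mice 1 to 3 and 103, 105 and 112 CPM in cKO mice 1 to 3. The groups overlapped, since Ctrl mouse 1 had the highest value of all 6. The log2 fold change was 0.07 (95% interval -0.10 to 0.24, adjusted p = 0.68), and its sign differed between the series, at -0.14 and 0.23. Mllt3 (ENSMUSG00000028496, chromosome 4 from 87769925 to 88033364) was the most even factor within Ctrl, with 48.7, 47.7 and 48.6 CPM in Ctrl mice 1 to 3 against 46.0, 51.1 and 49.9 CPM in cKO mice 1 to 3. Its log2 fold change of 0.02 (95% interval -0.15 to 0.19, adjusted p = 0.91) changed sign when the trend against gene length or GC content was removed. Hhex (ENSMUSG00000024986, chromosome 19 from 37434810 to 37440731) had 81.7, 95.6 and 87.2 CPM in Ctrl mice 1 to 3 and 88.8, 92.2 and 111 CPM in cKO mice 1 to 3. Its highest value came from cKO mouse 3, and the log2 fold change was 0.14 (95% interval -0.05 to 0.33, adjusted p = 0.38). For the 7 factors that did not pass, the farthest end of any 95% interval was a 1.2999-fold change, reached by Gata2, and for 5 of the 7 the whole interval lay within 1.2-fold. With 1 mouse left out, the Gata2 interval reached 1.41-fold (without cKO mouse 3) and the Hhex interval 1.33-fold (without cKO mouse 1). Those of Hlf and Etv6 then went beyond 1.2-fold, to 1.25-fold without Ctrl mouse 1 and 1.23-fold without cKO mouse 3. Those of Erg, Mllt3 and Runx1 stayed within 1.2-fold. These intervals, and not the missed threshold, describe how far the factors may have changed, but only under this processing. With the length trend removed, the log2 fold changes of Runx1 and Etv6 were -0.12 and -0.20, and that of Hlf was 0.0028. With the series as a covariate, Hhex had 0.22 and Gata2 -0.083. The intervals of those fits are not given.

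**Figure D2:**
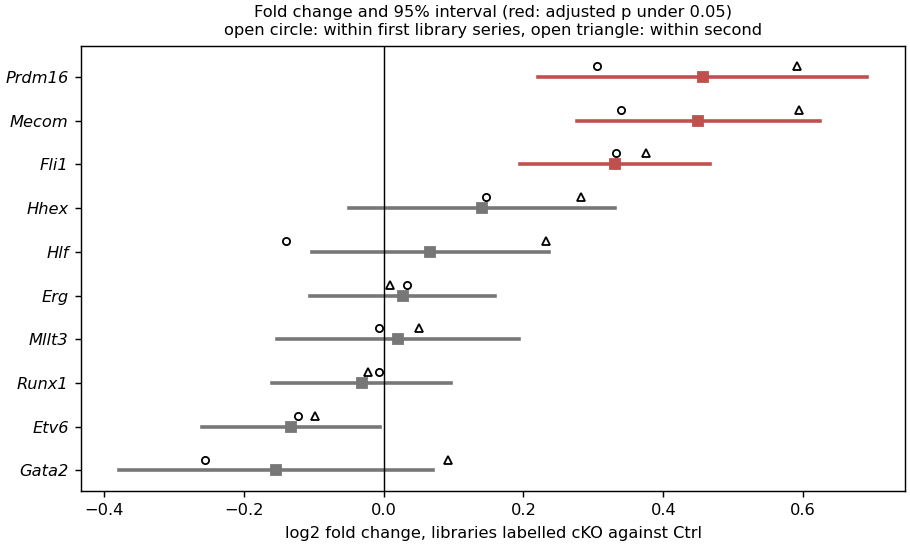
Log2 fold change of each factor, libraries labelled cKO against Ctrl, with squares for the fit over all 6 mice, lines for the 95% interval and red for an adjusted p under 0.05. Open circles and triangles give the differences within the first and the second library series, which lie on opposite sides of 0 for Gata2, Hlf and Mllt3 and on the same side for the other 7.

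To set the levels of the factors beside each other, CPM were divided by the summed exon length of each gene (RPKM). This length counts the exons of all annotated forms, whichever of them is expressed. In Ctrl, Etv6 stood highest with 78.7 to 83.1 RPKM, followed by Gata2 with 52.2 to 65.5 RPKM. Hhex (42.6 to 49.9 RPKM) and Fli1 (41.9 to 45.1 RPKM) were neighbors whose ranges overlapped. Erg came next with 35.3 to 37.1 RPKM, then Runx1 with 23.8 to 25.6 RPKM and Hlf with 14.0 to 17.1 RPKM. Mecom (4.86 to 5.33 RPKM), Mllt3 (3.98 to 4.06 RPKM) and Prdm16 (2.00 to 2.23 RPKM) were the lowest, so that 2 of the 3 factors that rose were among the 3 with the lowest level per kilobase. Apart from Hhex and Fli1, no neighbors in this order overlapped among the Ctrl mice. In cKO the order of the means was the same except that Fli1, at 52.4 to 56.4 RPKM, stood above Gata2 (46.9 to 62.4 RPKM) and Hhex (46.3 to 57.9 RPKM), and the ranges of these 3 overlapped.

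**Figure D3:**
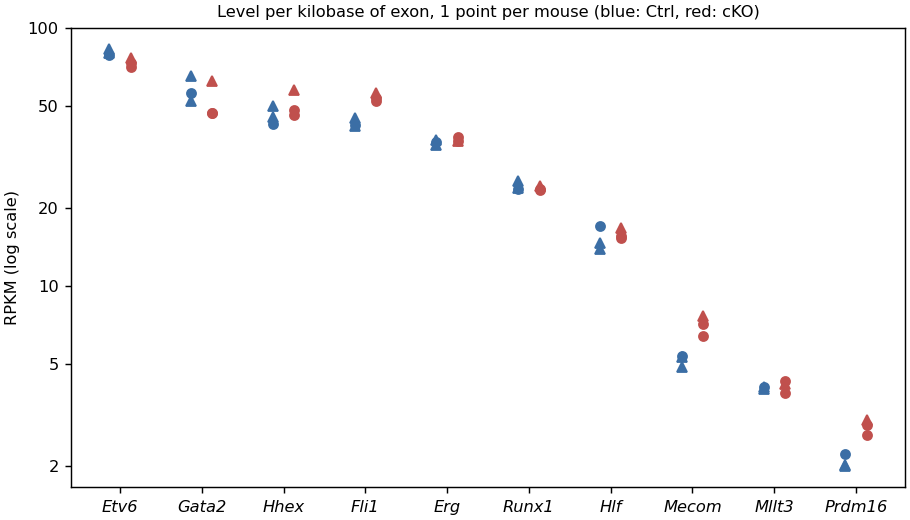
Level of each factor in RPKM on a log axis, ordered by the Ctrl mean, with 1 point per mouse, blue for Ctrl, red for cKO, circles for the first and triangles for the second library series. Levels span from about 2.08 RPKM for Prdm16 to 80.8 RPKM for Etv6 on average in Ctrl, and the order is kept in cKO except among Gata2, Hhex and Fli1.

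Both Mecom and Fli1 contain gene models of unconfirmed type that lie within introns on the strand of the host gene and were counted separately. They were examined after their values had been seen, and an snRNA model within Fli1 was left out. In Mecom, 5 such models without exon overlap summed to 35.0, 40.3 and 39.2 CPM in Ctrl mice 1 to 3 and to 45.9, 51.0 and 49.2 CPM in cKO mice 1 to 3. In Fli1, 4 models summed to 105.8, 104.7 and 100.3 CPM in Ctrl mice 1 to 3 and to 123.5, 125.9 and 144.8 CPM in cKO mice 1 to 3. In both introns every library labelled cKO lay above every Ctrl library, with log2 ratios of the means of 0.35 for Mecom and 0.34 for Fli1 (exact permutation test, two-sided p = 0.1 for each, the smallest p that 3 against 3 mice can give). These ratios lie beside fitted log2 fold changes of 0.45 and 0.33 for the exons. Of the 9 models, all were fitted as higher and 2 passed the threshold, Gm37652 in Mecom (log2 fold change 0.77, adjusted p = 0.021, lost without Ctrl mouse 1, cKO mouse 1 or cKO mouse 2 at 0.058, 0.055 and 0.11) and Gm38346 in Fli1 (0.52, adjusted p = 0.0066). Antisense neighbors had few counts. Gm17089 across Etv6 had 88 counts over all libraries, and Mecomos, Gm27201, Gm13133 and Gm13111, across or beside Mecom, Fli1 and Prdm16, had 16 to 42 and were not tested. Gm38345, which starts on the other strand near Hhex, had 469 counts and a fitted log2 difference of -0.24 (adjusted p = 0.61). Since counting used the strand, reads of these neighbors were not assigned to the factors.

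**Figure D4:**
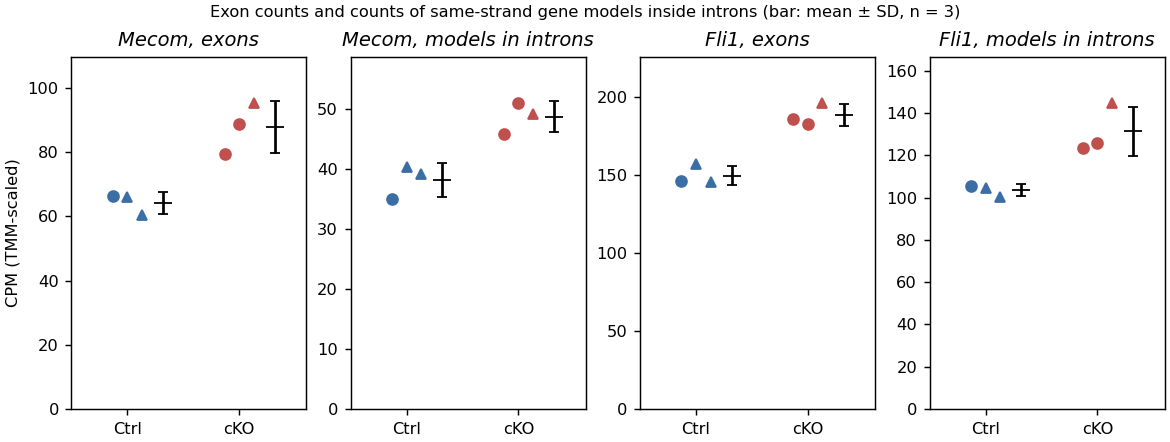
CPM (TMM-scaled, axes from 0) of the exons of Mecom and Fli1 and of the summed gene models within their introns, with 1 point per mouse, blue for Ctrl, red for cKO, and bars for the mean ± SD (n = 3). In all 4 panels every cKO point lies above every Ctrl point.

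The partners of the 10 factors were read beside the 7.67% of all genes tested that passed. Among 8 genes of the heptad and of the Tal1 complex none passed, and the median log2 fold change was -0.11. An unadjusted p under 0.05 was found for 4 of the 8, and for 3470 of all 15184 genes tested. Tal1, Lyl1 and Lmo2, which complete the heptad with 4 of the 10 factors, had log2 fold changes of -0.05, -0.14 and -0.16, and Tcf12, an E protein partner of Tal1 and the nearest to the threshold, had 0.19 (adjusted p = 0.099). Of 6 partners and paralogues of Runx1 and Gata2, only Gata1, the erythroid and megakaryocytic GATA factor, passed. It fell from 38.1 ± 5.92 to 24.4 ± 1.98 CPM (SD, n = 3 each), by 0.64 on the log2 scale (adjusted p = 0.0035). Cbfb had 0.04 and an adjusted p of 0.77. None of the 3 other PAR bZIP genes beside Hlf passed, and Tef was nearest (-0.09, adjusted p = 0.70). Of 12 genes listed as partners of Mllt3, 1 rose, namely Aff4, a scaffold of the super elongation complex (0.24, adjusted p = 0.025). Its call was lost without Ctrl mouse 2 or 3 or cKO mouse 1 or 2, at adjusted p from 0.068 to 0.11. The call was also lost with the length trend removed (0.18).

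Among other ETS factors, 15 of 23 could be tested, 3 rose and none fell, with a median log2 fold change of 0.08. Ets2, a target of Ras signaling, rose from 24.8 ± 1.198 to 39.4 ± 2.74 CPM (SD, n = 3 each), by a log2 fold change of 0.67 (adjusted p = 6.6e-04). Elk3, a repressor of the ternary complex group, had 0.31 (adjusted p = 0.019, lost without Ctrl mouse 3 or cKO mouse 1 or 2 at 0.060, 0.096 and 0.067). Etv3, a further ETS repressor, had 0.27 (adjusted p = 0.043) and missed the threshold whichever of the 6 mice was left out, at adjusted p from 0.053 to 0.16, as well as with the series as a covariate (0.065) and with the length trend removed (0.13). Of 15 other PRDM factors and CtBP corepressors, 9 could be tested, with 1 higher and none lower past the threshold and a median log2 fold change of 0.13.

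Of 21 other stem cell factors, 5 rose and 1 fell, with a median log2 fold change of 0.12. Nkx2-3, a homeodomain factor, rose by 0.87 on the log2 scale (adjusted p = 0.0012). Mycn, a Myc family factor, rose by 0.70 (adjusted p = 0.014), which missed the threshold without Ctrl mouse 3 (0.064) or cKO mouse 3 (0.056) and with DESeq2 (0.10). Hoxb5 was barely counted, at 0.185 ± 0.105 CPM in Ctrl and 1.14 ± 0.108 CPM in cKO (SD, n = 3 each), and its call was lost without any mouse other than Ctrl mouse 2, at adjusted p from 0.052 to 0.070. Zbtb16, named after its value had been seen because it alone fell, changed by -0.60 on the log2 scale (adjusted p = 0.019), a call lost without Ctrl mouse 1 (0.070), cKO mouse 1 (0.072) or cKO mouse 2 (0.11). Of 15 factors of lineage commitment tested, 5 fell, 10 did not pass and none rose, with a median of -0.20, and the difference between the lists was not tested. Cebpa, the granulocyte and monocyte factor, changed by -0.68 on the log2 scale (adjusted p = 5.2e-04), Irf8, of monocytes and dendritic cells, -0.78 (adjusted p = 7.6e-04), and Klf1, of erythroid cells, -2.07 (adjusted p = 2.1e-05). Gata1 is also on this list, and Tcf7, of T cells, fell by 0.95 (adjusted p = 0.031), a call lost without Ctrl mouse 1 or without any 1 of the cKO mice (adjusted p from 0.055 to 0.12) and with DESeq2 (0.16).

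Marker genes of the cells inside the LSK gate were read beside these results. Of 10 genes enriched in long-term stem cells, 7 rose and none fell, with a median log2 fold change of 0.81 and summed levels of 147.5 to 153 CPM in Ctrl and 227 to 282 CPM in cKO. Fgd5 (log2 fold change 1.53, adjusted p = 2.7e-06), Procr (1.43, adjusted p = 3.6e-04) and Pdzk1ip1 (1.10, adjusted p = 0.0017) had the smallest adjusted p-values. Of 9 genes of lymphoid-primed progenitors, 4 fell and none rose, with a median of -0.86 and summed levels of 919 to 1588 CPM in Ctrl and 464 to 547 CPM in cKO. Dntt changed by -5.86 on the log2 scale (adjusted p = 4.9e-08), Ighm by -1.72 (adjusted p = 2.1e-04) and Il7r by -1.42 (adjusted p = 0.014, lost without Ctrl mouse 2 or cKO mouse 2 at 0.060 and 0.064). Whether these shifts have any part in the higher counts of Mecom, Prdm16 and Fli1 was not tested.

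Genes known as markers of mature lineages, some of which progenitors inside the gate also express, were read in the same way. All 6 tested granulocyte genes fell, with summed levels of 2786 to 3381 CPM in Ctrl and 449 to 733 CPM in cKO, led by Mpo (log2 fold change -2.89, adjusted p = 1.6e-08) and Elane (-2.37, adjusted p = 9.1e-08). Of the mast cell and basophil genes 2 of 5 fell (summed 73.6 to 87.3 and 34.6 to 48.4 CPM), Ms4a2 (-3.54) and Cpa3 (-0.93), beside Gata2, which mast cells also express. Of the erythroid genes 1 of 3 tested fell, Car1 (-5.72), at summed levels of 55.4 to 81.2 and 7.70 to 10.8 CPM. Of the monocyte genes 2 of 3 fell, Csf1r (-0.70) and Cd68 (-0.60, adjusted p = 0.030, lost without Ctrl mouse 2 or 3 or cKO mouse 2 or 3 at 0.059 to 0.13 and with the series as a covariate at 0.058), at 42.6 to 49.1 and 24.8 to 32.5 CPM. Of the 5 megakaryocyte genes tested, Pf4 fell (-1.27) and Itgb3 rose (1.07), at 68.2 to 74.6 and 67.9 to 114 CPM. Erg and Fli1 are also expressed in endothelium. Of 5 endothelial genes 2 could be tested, and 1, Kdr, rose from 0.945 ± 0.433 to 3.57 ± 0.721 CPM (SD, n = 3 each; adjusted p = 0.0069, or 0.054 without cKO mouse 2), with summed levels of 5.04 to 5.88 and 7.36 to 8.82 CPM. Both stromal genes tested fell, Cxcl12 (-2.08) and Col1a2 (-1.27, adjusted p = 0.011, or 0.056 without cKO mouse 1), from 7.95 to 11.9 CPM to 2.87 to 4.44 CPM. No B or T cell marker had more than 10 counts in any library. Whether any of these cells contributed to the counts of the 10 factors was not tested.

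**Figure D5:**
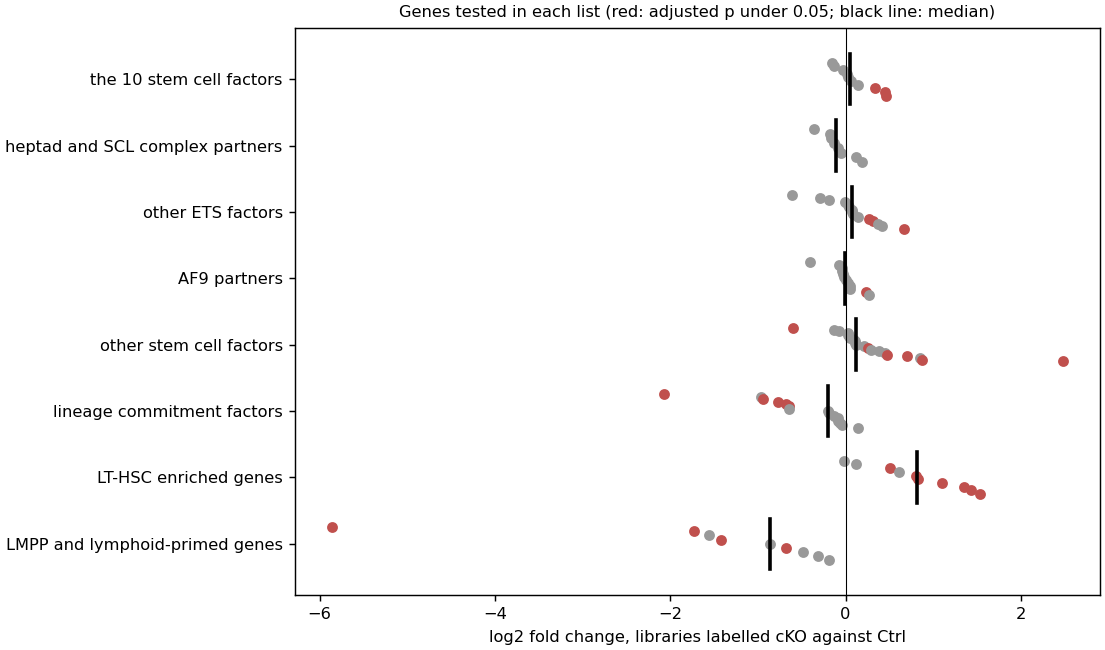
Log2 fold change, libraries labelled cKO against Ctrl, of each gene tested in 8 lists, with red for an adjusted p under 0.05 and a black line for the median of the list. The 10 stem cell factors lie between -0.15 and 0.46, whereas genes enriched in long-term stem cells have a median of 0.81 and lymphoid-primed genes one of -0.86; the point at 2.48 is Hoxb5, whose fitted change rests on few counts.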

How the data were processed

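RNA from the LSK cells of 3 mice per group had been reverse-transcribed and amplified with a stranded total RNA kit and sequenced as single reads. The authors aligned the reads with GSNAP (build mm10) and deposited raw counts of uniquely aligned reads per gene, counted on the strand of the gene with featureCounts (1.5.0) on Ensembl models. Tool versions are those of the submitters' notes and the header of the table. Exon lengths were deposited with the counts and used for RPKM. Symbols came from GENCODE M21 by gene identifier (98.8% of genes).

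Counts were tested with edgeR 4.0.16 in R 4.3.3 (TMM, filterByExpr defaults, quasi-likelihood test, genotype as the only term, Benjamini-Hochberg adjustment over 15184 genes, threshold 0.05). Standard errors were derived from the log2 fold change and its F statistic, and 95% intervals use the t quantile. The procedure was tested on simulated counts, with 200 genes changed by larger folds than any of the 10 factors. Changes as small as those of the factors were not simulated. Mice are numbered in accession order within a group. Beside Setd1b and the 10 factors, the named genes are antisense neighbors with at least 10 counts and, from each list, all genes past the threshold if 5 or fewer, otherwise the 4 with the smallest adjusted p, or the nearest if none passed. Exceptions are marked in the text, and some items are not reported here. The factors and lists were chosen with earlier results of these data known. Alternatives were DESeq2's size factors, DESeq2 1.42.0, other filters, trends against length or GC content removed, the library series as a covariate, an adjusted p of 0.01, a test against 1.2-fold and leaving out each mouse. No set test was run. Figures were drawn with matplotlib 3.10.9.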

Additional observations from a re-analysis of the deposited data

How the results depend on the processing

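The count of 1164 genes past the threshold became 513 at an adjusted p under 0.01 and 341 in the test against 1.2-fold, which left 0 of the 10 factors. At an unadjusted p under 0.05, 4 of the 10 factors and 3470 of the 15184 genes tested passed. DESeq2 called 3 of the factors at an adjusted p under 0.05. Leaving out 1 mouse at a time, the count of genes lay between 604 (without cKO mouse 2) and 1125, with 665 without Ctrl mouse 3 and 739 without cKO mouse 3, and fewer mice entered each of these fits. The count of factors past the threshold was then 2 or 3, and their median log2 fold change lay between 0.024 and 0.079. Over 16 other settings, Mecom and Fli1 kept their calls in 15 each and Prdm16 in 10, and at an adjusted p under 0.01 the count of factors was 2. Signs changed for Mllt3 with the length trend (-0.070) or the GC trend (-0.0015) removed. With 1 mouse left out, the log2 fold change lay between -0.011 (without cKO mouse 2) and 0.064 for Mllt3, between -0.051 and 0.0021 (without Ctrl mouse 2) for Runx1 and between -0.17 and 0.0011 (without cKO mouse 1) for Tef. None of these was past the threshold, and the cause was not tested. The median log2 fold change of all genes lay between -0.023 and 0.0041 over these settings. With the length trend removed, 523 genes were higher and 842 lower, against 589 and 575. No paired analysis was possible because the labels give no replicate numbers. The mice were littermates, but which of them shared a litter is not given in the sources used here.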
